A study of Mus musculus with 18 samples.

Results

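The metabotropic glutamate receptor genes Grm2, Grm3, Grm4, Grm5, Grm6, Grm7 and Grm8 were examined in the lateral septum (LS) of virgin, maternal and pups removed mice. Each gene was followed through the brightest target (probeset) that the platform annotation assigns to it alone. All 7 genes had exactly 1 such probeset, so 7 of the 35557 probesets on the array, or 7 of the 19938 genes with a probeset of their own, were used. RNA came from 18 outbred hsd:ICR females about 70 days old, 6 in each group, and every mouse had its own array (Affymetrix Mouse Gene 1.0 ST). Maternal mice were lactating and were dissected on postpartum Day 7 with their litter of 11 pups. Pups removed mice had given birth as well but lost their pups on postpartum Day 2 and were dissected on Day 7. Virgin mice were of the same age and were kept with other virgins while the others were mated, and from then on every female lived alone. The virgin mice used and all pups removed mice were in diestrus. No gene was altered in any group. The LS was punched from both hemispheres of frozen sections, so each array holds RNA of all cells in the punch, and 8 animals per group were collected of which 6 were arrayed.

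Metabotropic glutamate receptors are G protein-coupled receptors that bind glutamate and act through second messengers and ion channels on a slower time scale than the ionotropic receptors. Group I receptors such as the product of Grm5 couple to Gq, phospholipase C and calcium release and lie mostly on the postsynaptic side. Group II receptors (Grm2 and Grm3) and group III receptors (Grm4, Grm6, Grm7 and Grm8) couple to Gi/o proteins that inhibit adenylyl cyclase, and many of them act as presynaptic autoreceptors or heteroreceptors that lower transmitter release. Grm3 is also made by astrocytes, and its receptor responds to N-acetylaspartylglutamate (NAAG) as well as to glutamate. The LS is a mostly GABAergic structure that receives dense glutamatergic input from the hippocampus.

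All values are log2 signals as deposited by the authors, where a difference of 1 is a doubling. Probesets of different genes have no common scale, so levels were compared between groups and not between genes. The 18 array medians lay between 7.61 and 7.70. The lateral septal neuron list, which includes Gad1, Gad2, Slc32a1 and Trpc4, had 15 of 16 markers measured, and its mean lay between 10.46 and 10.61 on every array. "Called" means an adjusted p under 0.25 in a limma fit to all 18 arrays and all probesets, which is the lenient threshold of the study. From the same arrays the study reports more significant targets at this threshold, in both of its comparisons, than were called here. At an adjusted p under 0.05 none of the 7 receptor genes was called.

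One of the 7 receptor genes changed. Grm3 was lower in maternal than in virgin LS by 0.18 on the log2 scale, and the other 6 genes were not called in any comparison. Between maternal and virgin mice 1.65% of all probesets were called (296 higher and 289 lower), and the 1 call among 7 receptor genes is read as a value for Grm3, not as a result about the family. These 585 calls ranged from 10 (without maternal replicate 5) to 1639 (without virgin replicate 6) when single arrays were left out, so this background is itself loose. The median difference of the 7 genes was 0.00 against 0.01 for all probesets, with 4 genes higher and 3 lower. In maternal against pups removed mice limma called 0 of the 7 genes and 0.0309% of all probesets. An unadjusted p under 0.05 was found for 1 receptor gene, Grm3, beside 8.96% of all probesets. The 11 calls over all probesets in this comparison became 204 without maternal replicate 1, 719 without pups removed replicate 4, and 783 with array weights. In pups removed against virgin mice limma called 0 of the 7 genes and 0.208% of all probesets. None of the 7 had an unadjusted p under 0.05, beside 8.13% of all probesets. The comparisons share groups, the maternal arrays in the first pair and the pups removed arrays in the last pair, and so are not independent of one another.

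**Figure D1:**
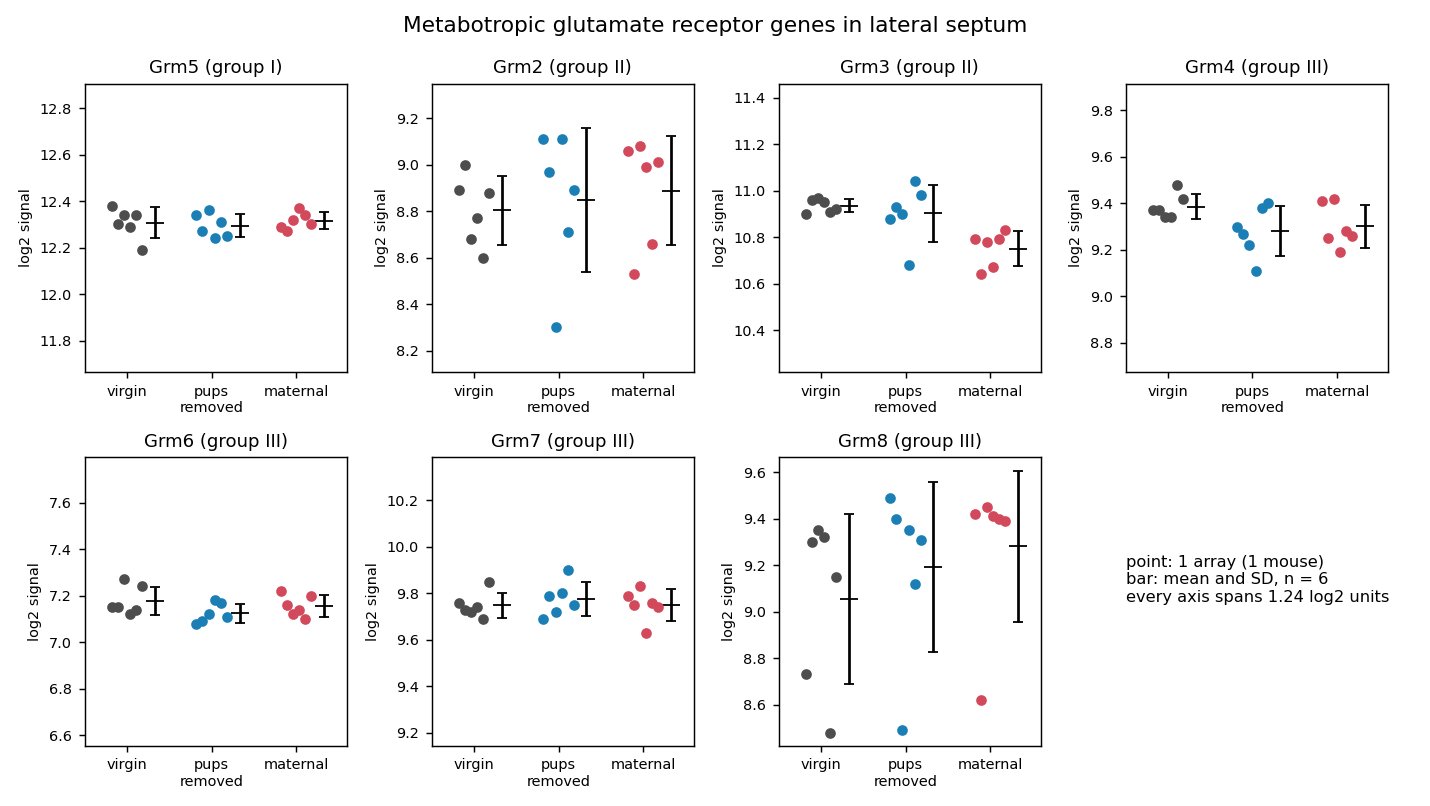
Log2 signal of the 7 receptor genes on each of the 18 arrays, 1 panel per gene, with 6 virgin, 6 maternal and 6 pups removed arrays; each point is a mouse and the bars give the group mean and SD. The maternal Grm3 values (10.64 to 10.83) all lie under the virgin values (10.90 to 10.97), while Grm8 has 1 or 2 low arrays in each group.

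Grm5 encodes the group I receptor that raises intracellular calcium through Gq. Its virgin values ran from 12.19 to 12.38 with a median of 12.32, its maternal values from 12.27 to 12.37 with a median of 12.31, and its pups removed values from 12.24 to 12.36 with a median of 12.29. The groups overlapped almost completely. The maternal minus virgin difference was 0.01 ± 0.03 (SE, limma adjusted p = 0.958), with a 95% interval from -0.07 to 0.08. Maternal minus pups removed was 0.02, with an interval from -0.05 to 0.09, and pups removed minus virgin was -0.01, with an interval from -0.09 to 0.06. These intervals leave out changes of more than about 0.1 in either direction. The within-group SD of Grm5 was 0.052, at percentile 5.2 of all probesets, whose median SD was 0.107.

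Grm3, one of the pair of group II genes, had the clearest group pattern of the family. Its 6 virgin values lay between 10.90 and 10.97 with a median of 10.94, and its 6 maternal values between 10.64 and 10.83 with a median of 10.79. No maternal array reached the lowest virgin array. Such a separation of the groups was found for 0.835% of all probesets in this comparison. The mean was 10.94 ± 0.03 (SD, n = 6) in virgin and 10.75 ± 0.08 (SD, n = 6) in maternal mice. Grm3 fell by 0.18 ± 0.05 (SE) in maternal LS, with a 95% interval from -0.29 to -0.08 and a limma adjusted p of 0.198. On the linear scale the change was -12.0%, with an interval from -18.2% to -5.4%. The study itself lists Grm3 among its most significant genes, lower in maternal LS, with a smaller adjusted p than here. Both results rest on the same arrays. In bulk tissue, fewer cells of a type and less RNA per cell cannot be told apart.

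Pups removed mice had Grm3 values from 10.68 to 11.04 with a median of 10.92 and a mean of 10.90 ± 0.12 (SD, n = 6). All of these arrays but 1, from 10.88 to 11.04, lay above every maternal array, and pups removed replicate 4 at 10.68 lay among the maternal values. All 6 maternal arrays were under the pups removed mean. Maternal minus pups removed was -0.15 ± 0.05 (SE), with an interval from -0.26 to -0.05, and did not pass the test (limma adjusted p = 0.4). Groups that did not overlap made up 0.529% of all probesets in this comparison, and Grm3 was not among them because of pups removed replicate 4. Pups removed minus virgin was -0.03 ± 0.05, with an interval from -0.14 to 0.07 and a limma adjusted p of 0.912. The order of the means was thus maternal, pups removed, virgin from low to high, and the pups removed and virgin means did not differ beyond their spread. Whether the drop from virgin differed between maternal and pups removed mice is the maternal against pups removed comparison, which was not called.

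Single arrays decided whether Grm3 passed the threshold. Without virgin replicate 2, 3 or 4 the maternal minus virgin difference was -0.18 each time and the limma adjusted p was 0.376, 0.333 and 0.292. Without maternal replicate 2, 4, 5 or 6 the difference was -0.16, -0.17, -0.19 and -0.20 and the adjusted p was 0.343, 0.359, 0.33 and 0.267. All of these fits also called fewer probesets over the whole array, from 10 (without maternal replicate 5) to 334 (without virgin replicate 4), against 585 in the main fit. The adjusted p depends on all probesets, so the lost calls do not rest on the Grm3 values alone. Without pups removed replicate 4 the maternal minus pups removed difference was -0.20 with an adjusted p of 0.172, which passed, in a fit that called 719 probesets in place of 11. The maternal minus virgin difference of Grm3 stayed between -0.20 and -0.16 over all 27 alternatives.

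**Figure D2:**
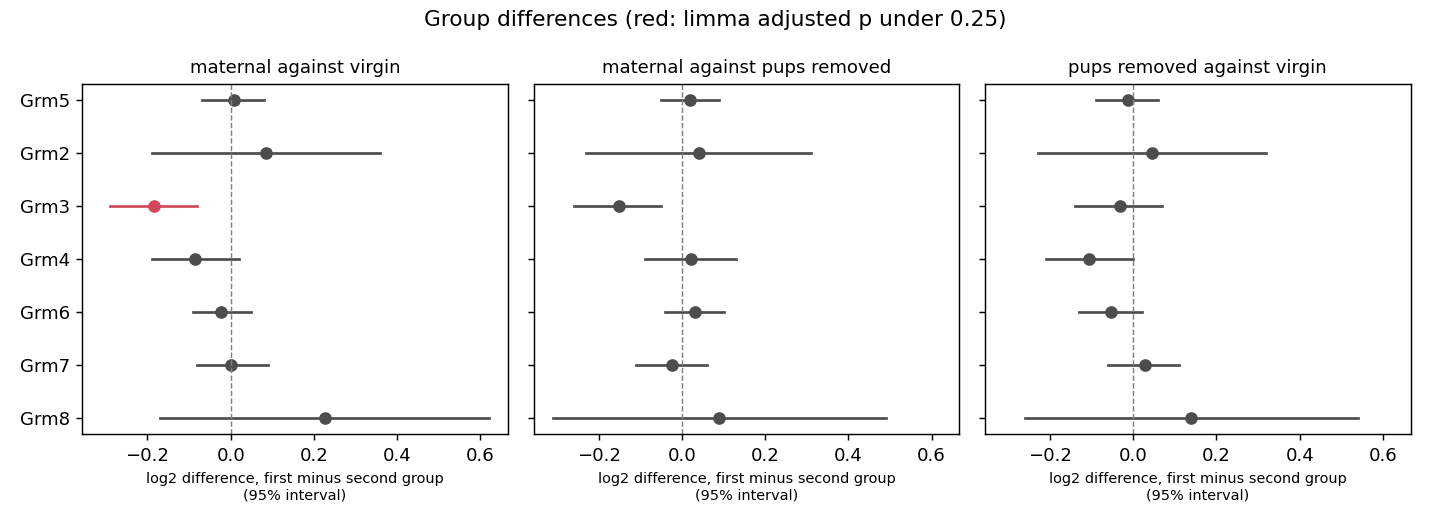
Log2 difference of each receptor gene in the 3 comparisons (first minus second group), with points at the limma estimate and bars at its 95% interval. Grm3 in maternal against virgin is the single call (red, -0.18), and the intervals of Grm8 and Grm2 are the widest of the family.

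Levels of several other transcripts moved with Grm3. Of 20 measured markers of striatal medium spiny neurons, which lie next to the LS, all 20 were lower in maternal than in virgin mice (median -0.38, against 0.01 for all probesets). An unadjusted p under 0.05 was found for 19 of the 20, beside 10.4% of all probesets. Beside 1.65% of all probesets called, 6 of the markers fell past the threshold: Pde1b, Adcy5, Rarb, Rxrg, Bcl11b and Foxp1. Some of these genes also stand in the lists that the study drew from these same arrays, so the list is not independent evidence of its direction. The mean of the 20 markers ran from 9.90 to 10.12 in virgin, from 9.24 to 9.78 in maternal and from 9.44 to 10.24 in pups removed mice, so that the virgin and maternal ranges did not meet. Its lowest maternal value, 9.24, was on maternal replicate 4, and its lowest pups removed value, 9.44, was on pups removed replicate 4. Grm3 on these arrays was 10.67 and 10.68. Among pups removed arrays the striatal mean and Grm3 rose in nearly the same order. Replicate 1 was next lowest in both, with a striatal mean of 9.65, inside the maternal range, and Grm3 at 10.88, above every maternal array. Replicates 5 and 6 were highest in both, with striatal means of 10.23 and 10.24 and Grm3 at 11.04 and 10.98. Among maternal arrays the match was looser. The lowest Grm3 value, 10.64, was on maternal replicate 2, where the striatal mean was 9.62. Against pups removed mice all 20 markers were lower in maternal mice as well (median -0.28, against 0.00 for all probesets). None was called by limma, and 12 had an unadjusted p under 0.05, beside 8.96% of all probesets. The defining genes Drd1, Drd2 and Tac1 were measured in all groups, at means of 9.44, 11.23 and 9.06 in maternal and 9.76, 11.50 and 9.64 in virgin mice. The part of striatal RNA in the Grm3 difference was not tested.

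Markers of astrocytes, a known source of Grm3 RNA, went both ways. All 13 were measured, and 7 were higher and 6 lower in maternal than in virgin mice. None was called by limma and 1, Gjb6 (difference 0.23, adjusted p = 0.312), had an unadjusted p under 0.05, beside 10.4% of all probesets. Against pups removed mice 8 were higher and 5 lower in maternal mice, and none was called. An unadjusted p under 0.05 was found for 4, beside 8.96% of all probesets: Aldoc (difference 0.17), Gjb6 (0.28), Fgfr3 (0.11) and Aqp4 (-0.16). The astrocyte mean ran from 10.24 to 10.39 in virgin, 10.29 to 10.42 in maternal and 10.27 to 10.39 in pups removed mice. Neural stem cell and neuroblast markers were lower in maternal than in virgin mice in 10 of 12 cases. Of these, 5 fell past the threshold, Nes, Nr2e1, Egfr, Fabp7 and Top2a, beside 1.65% of all probesets called. Their mean was 9.12 to 9.26 in virgin and 8.98 to 9.11 in maternal mice, and the study's own lists hold some of these genes too. Of 9 microglial markers 4 were higher and 5 lower (median -0.02), and Aif1 and P2ry12 fell past the threshold, beside the same 1.65% of all probesets. The microglial list means were 8.21 to 8.34 in virgin and 8.18 to 8.30 in maternal mice. Choroid plexus markers were lower in maternal mice in 8 of 8 cases against virgin mice (median -0.51) and in 8 of 8 against pups removed mice (median -0.50), a larger median than that of the striatal list. Their spread was wide, with list means of 7.83 to 9.89 in virgin, 7.82 to 9.46 in maternal and 7.70 to 9.86 in pups removed mice, and limma called none of them, with 1, Aqp1, at an unadjusted p under 0.05 in each of these comparisons. None of the measured markers of lateral septal neurons (15), oligodendrocytes (8), oligodendrocyte precursors (7) or cortical and hippocampal glutamatergic neurons (7) was called by limma between maternal and virgin mice. An unadjusted p under 0.05 was found for 4, 0, 3 and 2 of them, beside 10.4% of all probesets. The part of these cell types in the Grm3 difference was not tested.

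Grm2, the other group II gene, encodes a largely presynaptic autoreceptor of glutamatergic terminals. Its values ran from 8.60 to 9.0 with a median of 8.83 in virgin, from 8.53 to 9.08 with a median of 9.0 in maternal and from 8.30 to 9.11 with a median of 8.93 in pups removed mice. The 3 groups overlapped over most of their ranges. Maternal minus virgin was 0.08 ± 0.13 (SE), with an interval from -0.19 to 0.36 and a limma adjusted p of 0.866. Maternal minus pups removed was 0.04, with an interval from -0.23 to 0.31, and pups removed minus virgin was 0.05, with an interval from -0.23 to 0.32. The arrays do not exclude differences of up to about 0.3 in Grm2.

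Grm4 encodes a presynaptic group III receptor. Its values ran from 9.34 to 9.48 with a median of 9.37 in virgin, from 9.19 to 9.42 with a median of 9.27 in maternal and from 9.11 to 9.40 with a median of 9.29 in pups removed mice. On the low side, 4 of 6 maternal and 4 of 6 pups removed arrays lay under every virgin array. The difference from virgin was -0.08 ± 0.05 (SE) in maternal mice (limma adjusted p = 0.582, interval from -0.19 to 0.02) and -0.11 ± 0.05 in pups removed mice (limma adjusted p = 0.622, interval from -0.21 to 0.00). Neither passed the test. Groups that did not overlap made up 0.38% of all probesets in pups removed against virgin mice, and no receptor gene was among them. Maternal and pups removed mice, which had both given birth, differed by 0.02 with an interval from -0.09 to 0.13.

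Grm7 encodes a widely expressed receptor of presynaptic active zones with a low affinity for glutamate. Its values ran from 9.69 to 9.85 with a median of 9.74 in virgin, from 9.63 to 9.83 with a median of 9.76 in maternal and from 9.69 to 9.90 with a median of 9.77 in pups removed mice. The groups overlapped throughout. Maternal minus virgin was 0.00 with an interval from -0.08 to 0.09, maternal minus pups removed was -0.03 with an interval from -0.11 to 0.06, and pups removed minus virgin was 0.03 with an interval from -0.06 to 0.11. The limma adjusted p values were 0.994, 0.889 and 0.914.

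Grm8 encodes a presynaptic group III receptor with a high affinity for glutamate, and it had the largest spread of the family. Its values ran from 8.48 to 9.35 with a median of 9.23 in virgin, from 8.62 to 9.45 with a median of 9.41 in maternal and from 8.49 to 9.49 with a median of 9.33 in pups removed mice. Most arrays lay between 9.12 and 9.49, and 4 lay far lower: virgin replicates 1 (8.73) and 5 (8.48), maternal replicate 2 (8.62) and pups removed replicate 3 (8.49). Every group held at least 1 of these low arrays. Maternal minus virgin was 0.23 ± 0.19 (SE), with an interval from -0.17 to 0.62 and a limma adjusted p of 0.715, and it became 0.36 (adjusted p = 0.576) without maternal replicate 2. Maternal minus pups removed was 0.09, with an interval from -0.31 to 0.49, and turned to -0.05 without pups removed replicate 3. The within-group SD of 0.352 was at percentile 95.5 of all probesets, so a difference of the size found for Grm3 could not have been told from this spread.

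Grm6 encodes the receptor of retinal ON bipolar cells and is known mainly from the retina. Its values ran from 7.12 to 7.27 in virgin, from 7.10 to 7.22 in maternal and from 7.08 to 7.18 in pups removed mice, all under the median probeset mean of 7.65. The 3 differences were -0.02, 0.03 and -0.05 in the order maternal minus virgin, maternal minus pups removed and pups removed minus virgin, and the limma adjusted p values were 0.873, 0.823 and 0.74. With a signal this low and no detection call in the values used, the arrays do not say whether Grm6 RNA was present.

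The receptor genes differed in how far they varied from mouse to mouse inside a group and in which transcripts they varied with. Likeness was measured as Pearson's r over the 18 arrays after each group's mean was subtracted, over 19937 other genes. The points share arrays and dissections, so these values are descriptions. Between receptor genes, r lay within 0.5 of zero in 18 of 21 pairs, with a median of 0.06. The exceptions were Grm2 with Grm8 (0.74), Grm3 with Grm4 (0.66) and Grm5 with Grm7 (-0.52).

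Grm8 was most like Slc17a6, the vesicular glutamate transporter VGLUT2 gene (r = 0.92, and 0.81 without the 2 farthest arrays), followed by Tmem229b (0.90) and the transcription factor gene Nr2f2 (0.89). The 4 arrays low in Grm8 had Slc17a6 values of 8.55 and 8.30 (virgin replicates 1 and 5), 8.12 (maternal replicate 2) and 7.62 (pups removed replicate 3), and the other 14 arrays lay between 8.63 and 9.27. Grm2 was most like Cpne9 (r = 0.96), the prohormone convertase gene Pcsk1 (0.95) and Calb2, which encodes the calcium-binding protein calretinin (0.94). The lowest Grm2 array of each group was virgin replicate 5 (8.60), maternal replicate 2 (8.53) and pups removed replicate 3 (8.30), and all of these were also low in Grm8. None of these like genes was called between maternal and virgin mice, and Slc17a6 differed by 0.17 ± 0.25 (SE, limma adjusted p = 0.862).

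Grm3 was most like Ccng2 (r = 0.87), Gabrd (0.86) and the kinase gene Akt2 (0.86). Gabrd encodes the delta subunit of extrasynaptic GABA-A receptors, and it was the only like gene of any receptor that was called between maternal and virgin mice. It fell by 0.37 ± 0.10 (SE, limma adjusted p = 0.212), with virgin values from 8.63 to 8.81 and maternal values from 8.11 to 8.52. Grm4 was most like Pde10a (r = 0.85), Kctd8 (0.85) and Rgs9 (0.84), and Pde10a and Rgs9 are in the striatal marker list. Maternal minus virgin was -0.63 for Pde10a (limma adjusted p = 0.251) and -0.63 for Rgs9 (0.286), which did not pass the test. The lowest Grm4 value of each postpartum group was on the array with the lowest striatal mean, maternal replicate 4 (9.19) and pups removed replicate 4 (9.11). Virgin mice did not show this. Their lowest Grm4 value, 9.34, was on replicates 3 and 4, with striatal means of 10.12 and 10.11. Their lowest striatal mean, 9.90, was on replicate 1, where Grm4 was 9.37. For Grm5 the most like genes were Elmo2 (0.89), Palmd (0.79) and Vldlr (0.79), for Grm7 they were Sppl2b (0.80), the thyroid hormone receptor gene Thra (0.78) and Mir129-2 (0.77), and for Grm6 they were Olfr704 (0.77), Macroh2a2 (0.75) and Zfp358 (0.75). Without the 2 farthest arrays these values were 0.82, 0.71 and 0.58 for Grm5 and 0.70, 0.66 and 0.65 for Grm7. For Grm6 they were 0.83, 0.58 and 0.61, and both Grm6 and Olfr704 lay under the median probeset mean. All named like genes were picked as the highest of 19937 values.

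**Figure D3:**
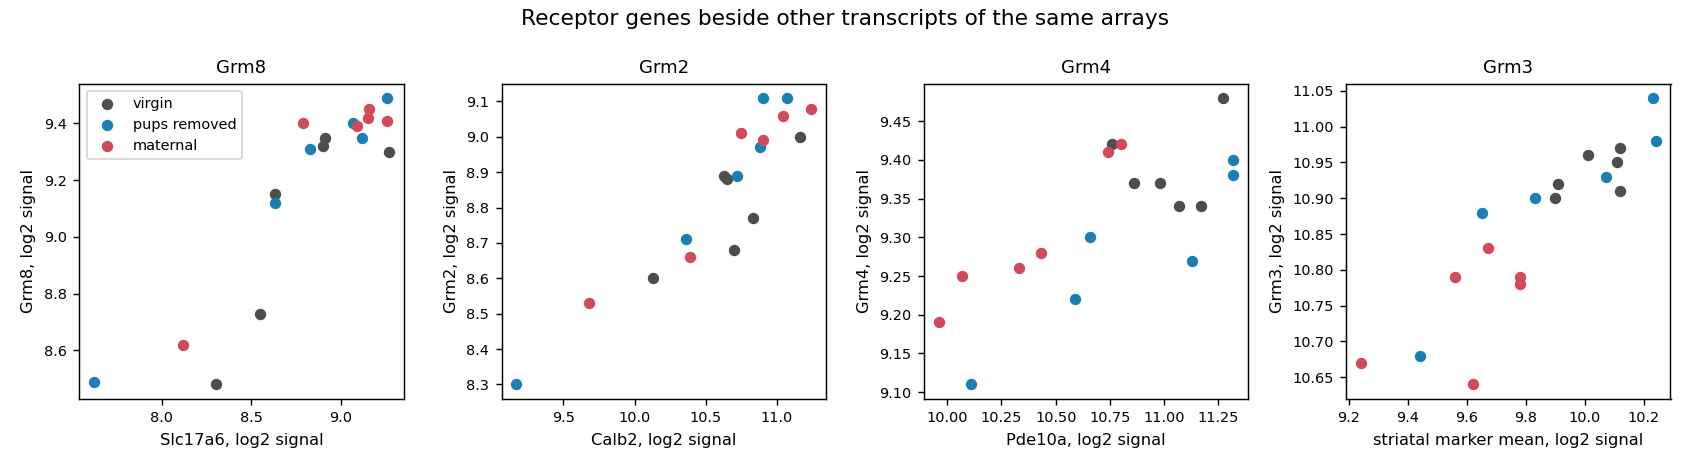
Log2 signal of Grm8 against Slc17a6, Grm2 against Calb2, Grm4 against Pde10a and Grm3 against the mean of the 20 striatal markers, 1 point per array and 1 colour per group. The low Grm8 and Grm2 arrays come from all 3 groups. For Grm3 the maternal arrays and pups removed replicates 1 and 4 lie under every virgin array on both axes. Pups removed replicate 1 (striatal mean 9.65, Grm3 10.88) lies above every maternal array in Grm3.

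The genes around the receptors, were grouped in 7 lists from glutamate handling to desensitization. Of 96 listed genes 88 were measured. Between maternal and virgin mice 42 were higher and 45 lower and 1 had equal means, and 1 of 88 was called (1.14%, beside 1.65% of all probesets). That count moved with the settings, from 0 to 6 when single arrays were left out and to 13 of 80 when only probesets at or above the median level were tested, where 1309 of all 17780 probesets were called. An unadjusted p under 0.05 was found for 17 of them (19.3%, beside 10.4% of all probesets). Their differences ran from -0.30 to 0.18, with a median of -0.01. Between maternal and pups removed mice limma called 0 of 88, and 10 had an unadjusted p under 0.05 (11.4%, beside 8.96% of all probesets). Between pups removed and virgin mice it called 0 of 88, and 3 had an unadjusted p under 0.05 (3.41%, beside 8.13% of all probesets).

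The called gene was Adcy5, in the list of Gi/o coupling and adenylyl cyclases. It encodes an adenylyl cyclase inhibited by Gi/o and is also in the striatal marker list. Virgin values lay between 10.72 and 11.00 and maternal values between 10.38 and 10.74. Adcy5 fell by 0.30 ± 0.08 (SE, limma adjusted p = 0.212), and it was called in 18 of 27 alternatives, with differences from -0.34 to -0.26. It lost the call without virgin replicate 2, 3, 4 or 5 or maternal replicate 2, 4, 5 or 6, with adjusted p values from 0.286 to 0.386. The remaining 20 genes of the list, which holds G protein subunits, cyclases and potassium channels, were not called.

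Upstream of the receptors, 6 of 11 genes of glutamate release and uptake were higher and 5 lower in maternal than in virgin mice, with none called and 3 at an unadjusted p under 0.05. Slc3a2, which encodes a subunit of amino acid exchangers, had the smallest p (difference -0.10, adjusted p = 0.353). The glial glutamate transporter genes Slc1a2 and Slc1a3 differed by -0.05 and 0.01 (limma adjusted p = 0.682 and 0.962). In the NAAG list of 6 genes, 4 were higher and 2 lower. Folh1, which encodes the peptidase that releases glutamate from NAAG, ran from 8.34 to 8.58 in virgin and from 8.47 to 8.87 in maternal mice, a difference of 0.18 ± 0.07 (SE, limma adjusted p = 0.334) that did not pass.

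Downstream, none of 11 genes of the Gq arm that Grm5 uses was called, with 5 higher and 6 lower and 2 at an unadjusted p under 0.05. Gna11, a Gq family alpha subunit gene, had the smallest p (difference -0.10, adjusted p = 0.346). Of 19 scaffold and partner genes 10 were higher and 9 lower, none was called and 3 had an unadjusted p under 0.05. Homer2, a scaffold of group I receptors, ran from 10.06 to 10.24 in virgin and from 10.20 to 10.36 in maternal mice (difference 0.14 ± 0.05, limma adjusted p = 0.305), while Homer1 differed by -0.03 (limma adjusted p = 0.919). Of 12 genes of receptor desensitization and RGS proteins, which shorten G protein signals, 4 were higher and 8 lower, none was called and 2 had an unadjusted p under 0.05. Rgs8 ran from 9.45 to 9.63 in virgin and from 9.18 to 9.48 in maternal mice (difference -0.21 ± 0.07, limma adjusted p = 0.298). Of 8 retinal partners of Grm6, 4 were higher, 3 lower and 1 at zero, none was called, and Nyx was the 1 gene with an unadjusted p under 0.05 (difference 0.14, adjusted p = 0.351).

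In maternal against pups removed mice the smallest p of each list belonged to Glul, Folh1, Plcb3, Gnb2, Dlgap3, Rgs8 and Gng13, with limma adjusted p values from 0.437 to 0.626. In pups removed against virgin mice it belonged to Slc1a4, Naalad2, Gna11, Adcy6, Homer2, Grk4 and Nyx. Grk4, a G protein-coupled receptor kinase gene, lay closest to the threshold there. It was 5.67 to 5.95 in virgin and 5.91 to 6.25 in pups removed mice, a difference of 0.27 ± 0.07 (SE, limma adjusted p = 0.252), at a signal under the median probeset mean.

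**Figure D4:**
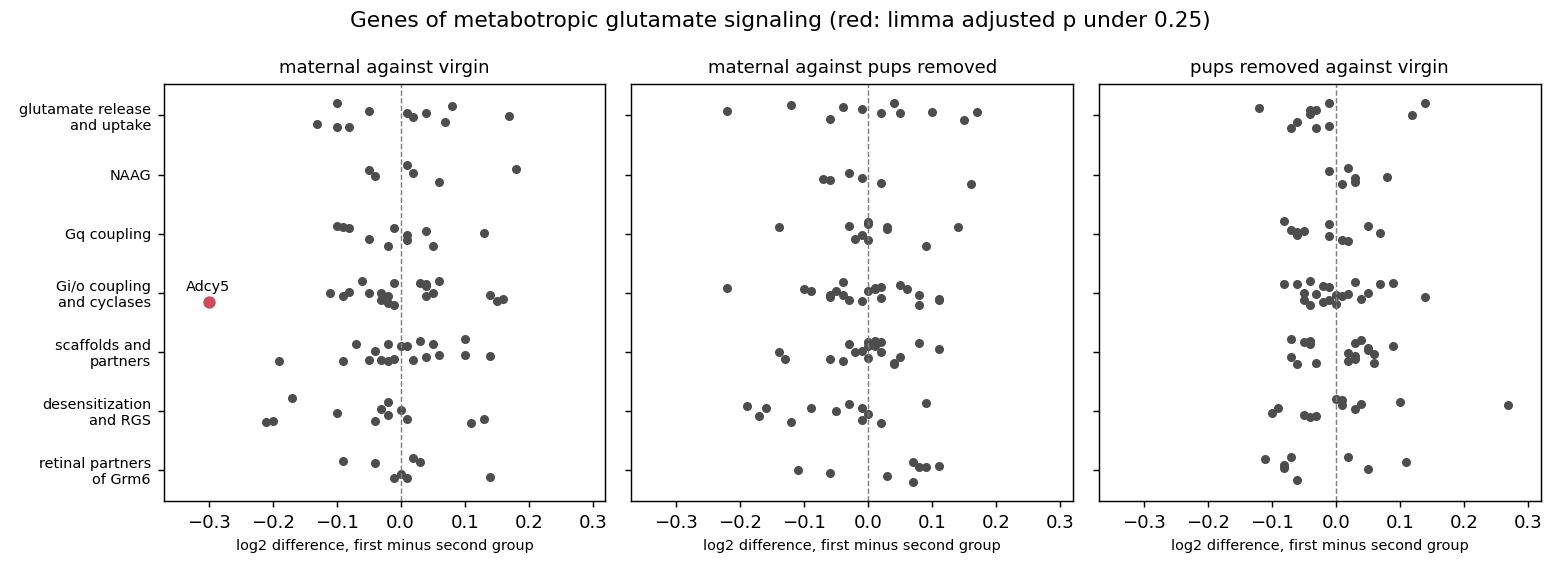
Log2 differences (first minus second group) of the 88 measured genes around the receptors, 1 point per gene, in 7 lists and 3 comparisons. Adcy5 at -0.30 in maternal against virgin is the single call (red), and most genes lie near 0.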

How the data were processed

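LS RNA of 18 mice (1 array each) was hybridized to Mouse Gene 1.0 ST arrays (Affymetrix). The log2 signals deposited by the authors were summarized with PLIER in Affymetrix Power Tools 1.12.0 with GC bin background correction and rounded to 2 decimals; the normalization between arrays was not given in the sources used here. These values were used unchanged. A 3-group linear model was fitted to all 35557 probesets with limma 3.58.1 (R 4.3.3), eBayes (prior df 2.62) and p-values adjusted by Benjamini and Hochberg's method across the whole table, and was tested on simulated data. A gene is its brightest probeset annotated to it alone; 21789 probesets name 1 gene, 1621 several and 12147 none. Arrays have no read depth, and their number limits the precision. The SD of the difference between arrays of 1 group was 0.207 to 0.284. The methods say that RNA was prepared in sets of 3, with a mouse of every group in each set, but the sources used here do not say which arrays formed a set.

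The receptor genes, gene lists and comparisons were chosen with earlier results of these data known. Named are the 7 receptor genes, called pathway genes, the pathway gene of smallest p in each list and comparison, the 3 genes most like each receptor gene, and, of the marker lists, called genes. Homer1, Slc1a2, Slc1a3 and the defining markers given with levels were added for their known roles. The markers Gjb6, Aldoc, Fgfr3, Aqp4 and Aqp1 were named for an unadjusted p under 0.05. Other markers with such a p were not all named. Alternatives were a replicate block, quantile normalization, median centring, robust trended moderation, array weights, fewer groups, probeset filters, averaged probesets, a threshold of 0.05, and leaving out each array.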

Additional observations from a re-analysis of the deposited data

Results flagged for a closer look

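In each group of 6 arrays, the gap between the highest or lowest value and its neighbour was compared with the range by Dixon's test, which chance alone passes in about 1 in 20 groups. Of 21 sets of values (7 receptor genes in 3 groups) 2 passed its 95% critical value, both for Grm8. Maternal replicate 2 was at 8.62 while the nearest maternal array was at 9.39, a gap of 0.928 of the range. Pups removed replicate 3 was at 8.49 while the nearest array was at 9.12, a gap of 0.63 of the range. The same arrays had the lowest Slc17a6 (8.12 and 7.62) and Grm2 (8.53 and 8.30) values of their groups. In virgin mice 2 arrays were low in Grm8, at 8.48 and 8.73, and no single array stood apart.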

How the results depend on the processing

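Of 564 alternative values of the 7 receptor genes 536 kept their direction and their side of the threshold, and 10 of the 21 gene and comparison pairs never changed. Part of this was fixed in advance, as some alternatives cannot move a difference. Leaving out an array of the group not compared is 1 of them, and averaging the probesets of genes that have only 1 is another. The count of receptor genes called between maternal and virgin mice was 1, and ranged from 0 to 1 when arrays were left out and was 0 at an adjusted p under 0.05. Grm3 with the replicate block was -0.18 with an adjusted p of 0.246, so its call held, while calls over all probesets were 356 against 585 without the block. Whether the replicate numbers mark the sets in which RNA was prepared is not stated, and the arrays gave no sign of it: same-numbered arrays correlated between -0.248 and 0.095 and 1 of 18 arrays was most like its own number. In maternal against pups removed mice 1 receptor gene (Grm3, -0.16, adjusted p = 0.198) was called with array weights, and 0 to 1 when arrays were left out. Pathway genes called between maternal and virgin mice were 3 after quantile normalization, 2 with trended robust moderation, 3 with only the groups compared, 2 with only probesets of 1 gene, 13 of 80 with only probesets at or above the median level, 0 at an adjusted p under 0.05, and 0 to 6 with arrays left out; with the replicate block the 1 called gene was Grasp and Adcy5 was at an adjusted p of 0.25. Left-out arrays gave 0 to 1 pathway genes in each of the other comparisons, Adcy5 without pups removed replicate 4 and Grk4 without any of virgin replicates 4 and 6, maternal replicates 4 and 6 and pups removed replicates 4 and 5. Small differences changed sign. Median centring turned maternal minus virgin to -0.008 for Grm5 and -0.015 for Grm7, and pups removed minus virgin to -0.003 for Grm7. With arrays left out, maternal minus virgin ranged from -0.015 to 0.023 for Grm5 and -0.014 to 0.026 for Grm7, maternal minus pups removed from -0.07 to 0.112 for Grm2, -0.012 to 0.046 for Grm4 and -0.052 to 0.221 for Grm8, and pups removed minus virgin from -0.035 to 0.003 for Grm5, -0.007 to 0.155 for Grm2 and -0.061 to 0.011 for Grm3. The cause was not tested. Grm6, under the median level, has no value with the level filter.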
